A study of Mus musculus with 7 samples.

Results

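The genes described here are the 3 Nr4a orphan nuclear receptors and 7 transcription factors of the Fos, Jun and Egr families. These are Nr4a1, Nr4a2, Nr4a3, Fos, Fosb, Fosl1, Fosl2, Jun, Junb and Egr1. They were found by gene symbol in the platform annotation, and each of the 10 had 1 probe set among the 19505 named genes. The genes were chosen by their log2 signals over all 7 arrays, with earlier results of these data known. Their levels and differences are therefore descriptions and carry no test.

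The series asked how the form of Mef2c used with Gata4 and Tbx5 (GT) shapes the direct reprogramming of mouse embryonic fibroblasts (MEFs) into cells with cardiac gene expression, and what the acetyltransferase p300 has to do with it. MEFs received retroviruses for Gata4, Tbx5 and 1 form of Mef2c. That form was isoform 1 on the array called GT/M1, isoform 2 on GT/M2, isoform 6 on GT/M6 and, on GT/M2TAD, isoform 2 fused to the transactivation domain of MyoD. Their medium was replaced 24 h after infection by one with fetal bovine serum, and they were collected at 1 week. Another array held MEFs that were not treated. The remaining arrays held transduced cells that had also received small interfering RNA (siRNA), against a control sequence (siCtrl) or against Ep300 (siEp300). Titles of the siRNA samples give GT/M2, whereas their source names and characteristics give GT/M2TAD, so the Mef2c form they carried is not settled. No virus without factors was among the arrays, and the growth protocol, the same for every sample, speaks of transduced cells alone. The labels thus give no harvest time or medium of their own for the untreated MEFs, no strain or age of the embryos and no share of cells that took up the viruses. Each group was 1 array of a Clariom S mouse chip, so there is no spread between replicates and no difference below has a replicate check.

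Immediate early genes are switched on within a short time of a stimulus such as serum, growth factors, calcium or cyclic AMP, without new protein being made first. Fos and Jun proteins pair through leucine zippers to form the transcription factor AP-1, and Egr1 is a zinc finger factor of the same response. The Nr4a receptors bind DNA without a known natural ligand, so that their activity follows chiefly from how much of them is made. Cyclic AMP acts on Nr4a genes through the factor CREB, which binds the cyclic AMP response element (CRE), and calcium acts on Nr4a1 in part through MEF2 proteins. In cardiac and skeletal muscle, Nr4a genes are known to respond to beta-adrenergic stimulation and exercise.

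The promoters of the 3 Nr4a genes, Fos and Jun are shown because all 3 Nr4a genes were 2-fold higher on GT/M2TAD than on GT/M2, where Fos and Jun had nearly equal signals. Each is the run of 250 bases before the gene's start in RefSeq (GRCm38.p6), 5′ to 3′ on the gene's own strand. Capitals mark the CRE half-site, TGACG read on either strand, and, in Nr4a2 and Jun, the single match to the MEF2 consensus. The windows are chr15:101266596-101266845 on the plus strand for Nr4a1, chr2:57124004-57124253 on the minus strand for Nr4a2, chr4:48045055-48045304 on the plus strand for Nr4a3, chr12:85473640-85473889 on the plus strand for Fos and chr4:95052223-95052472 on the minus strand for Jun.
Nr4a1: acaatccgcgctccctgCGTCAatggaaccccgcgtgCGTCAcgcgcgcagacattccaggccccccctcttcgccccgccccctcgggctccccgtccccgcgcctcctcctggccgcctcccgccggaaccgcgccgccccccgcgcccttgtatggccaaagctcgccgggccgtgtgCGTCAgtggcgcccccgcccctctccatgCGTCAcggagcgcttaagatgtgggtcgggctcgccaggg
Nr4a2: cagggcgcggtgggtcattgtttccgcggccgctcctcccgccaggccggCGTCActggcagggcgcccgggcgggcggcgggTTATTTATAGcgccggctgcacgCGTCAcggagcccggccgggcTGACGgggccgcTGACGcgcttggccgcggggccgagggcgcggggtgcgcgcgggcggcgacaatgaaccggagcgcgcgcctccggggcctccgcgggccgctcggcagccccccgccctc
Nr4a3: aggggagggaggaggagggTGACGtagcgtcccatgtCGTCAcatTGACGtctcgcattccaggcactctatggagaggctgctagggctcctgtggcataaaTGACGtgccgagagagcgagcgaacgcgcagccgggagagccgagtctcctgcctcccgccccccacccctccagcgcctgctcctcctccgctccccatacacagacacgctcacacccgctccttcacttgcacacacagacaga
Fos: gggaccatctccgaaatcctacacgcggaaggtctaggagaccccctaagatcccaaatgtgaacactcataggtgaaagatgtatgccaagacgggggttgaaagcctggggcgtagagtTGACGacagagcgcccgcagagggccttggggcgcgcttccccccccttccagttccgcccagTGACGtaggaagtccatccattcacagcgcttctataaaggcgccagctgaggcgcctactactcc
Jun: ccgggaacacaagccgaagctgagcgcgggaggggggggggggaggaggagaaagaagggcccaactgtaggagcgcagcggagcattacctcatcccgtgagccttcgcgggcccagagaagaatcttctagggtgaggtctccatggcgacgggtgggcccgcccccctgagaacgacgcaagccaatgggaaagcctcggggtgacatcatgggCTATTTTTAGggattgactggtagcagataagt

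Each of the 3 Nr4a promoters held 4 CRE half-sites. The chromosome that carries Egr1 was left out of the promoter search. Among the 32851 RefSeq promoter windows of this length searched, 17.8% held at least 1 half-site and 0.137% held 4 or more. Those windows were not matched to the members' windows for base composition. The sites lay from 233 to 36 bases before the start in Nr4a1, from 200 to 107 in Nr4a2 and from 231 to 143 in Nr4a3. Fos held 2 half-sites, and Junb and Fosb 1 each, whereas the windows of Jun and Fosl2 held none. The full CRE, TGACGTCA, which contains the half-site on both strands, was in none of the 8 members' windows and in 1.55% of all windows. The MEF2 consensus, present in 2.92% of all windows, matched from 167 to 158 bases before the start of Nr4a2 and from 33 to 24 before that of Jun. The AP-1 variant TGACATCA, in 2.93% of windows, lay from 45 to 38 bases before the start of Jun, and the common AP-1 form TGANTCA, in 6.75% of windows, was in no member's window. Of the other letters searched on both strands, the Egr site GCGNGGGCG (4.70% of windows) was in 4 members, Nr4a1, Nr4a2, Fosb and Fosl2, and TATAAA (12.4%) in Fos and Nr4a2, where it overlapped the MEF2 match. A site for Gata factors, AGATAA (9.99%), was in Jun. The other such form, TGATAA (7.94%), the T-box half-site AGGTGT (11.8%), the Nr4a monomer element AAAGGTCA (1.34%) and the CArG box (1.47%) matched in none. A match is a run of letters, not a measured site. Bases outside these windows were not searched, and neither were members without a window, Egr1 among them. The lack of a CArG box, and of a MEF2 match in Nr4a1, therefore holds for these windows only. It does not show that the genes lack such sites elsewhere.

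**Figure D1:**
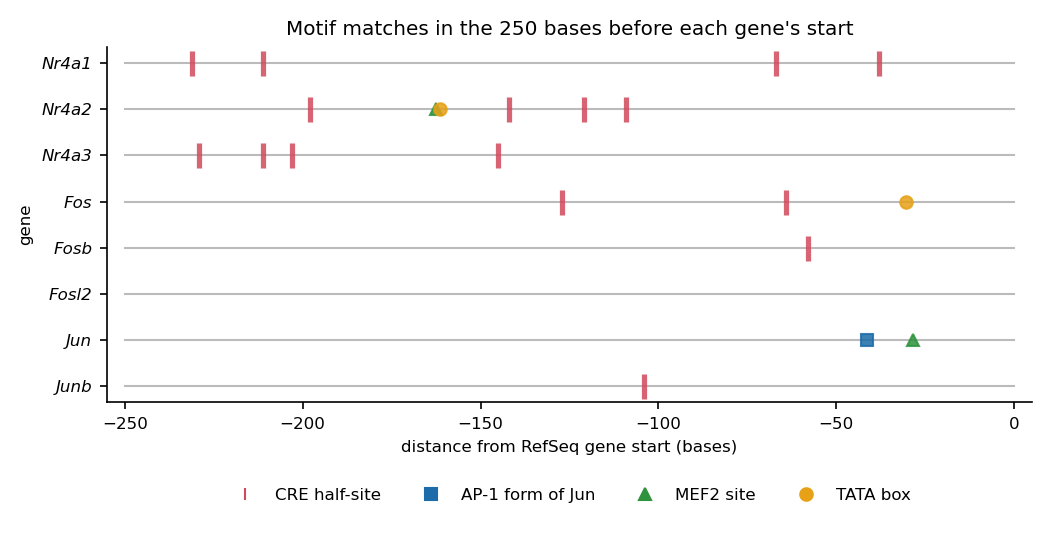
Positions of motif matches in the 250 bases before the RefSeq start of the 8 members with a promoter window (x axis: distance from the gene start in bases; y axis: gene). Red bars are CRE half-sites, of which Nr4a1, Nr4a2 and Nr4a3 hold 4 each and Fos 2; the triangles are MEF2 matches in Nr4a2 and Jun, the square is the AP-1 variant of Jun and the circles are TATA matches.

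Signals are log2 values, on which a difference of 1 is 2-fold. Median signal over the named genes lay between 5.38 and 5.71 on the 7 arrays. Each array's background line, set at the 95th percentile of its 5222 probes that serve as negative controls, lay between 8.43 and 9.33. A gene counted as 2-fold apart where its log2 difference was at least 1 and the higher of its signals was at or above the median of named genes on that array. By the same rule 26.8% to 54.2% of negative-control probes at that floor were 2-fold apart in the 12 comparisons made. Of negative-control probes above the background line, 28.9% to 56.4% were 2-fold apart and 14.95% to 29.97% were 4-fold apart. A member with both signals under the background line thus carries little weight. Passing the line does not by itself make a 2-fold difference secure. The Mef2c probe set gave 8.24 on MEF and 18.32 to 18.87 on the 6 others. Tbx5 was 5.72 on MEF, 16.14 to 16.23 on the transduced arrays without siRNA and lower, at 14.83 and 14.82, on siCtrl and siEp300. Gata4 was 4.22 on MEF and 3.57 to 5.09 on the transduced arrays, under the background line on all 7, so its probe set does not show the delivered factor. Ep300 was 9.47 on siEp300 and 9.90 on siCtrl. Of 9 fibroblast markers measured, 6 or 7 lay above the background line on every array. Cardiac muscle markers did so for 1 of 10 on MEF and for 6 or 7 on the transduced arrays. None of 8 macrophage markers passed the line on any array. Endothelial markers passed it for 1 of 9 on MEF and for 0 on the others, and epithelial and mesothelial markers for 0 to 2 of 9.

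The Nr4a receptors were high on GT/M2TAD and on both siRNA arrays and low on the other 4. Nr4a3, the receptor also called NOR1, had signals of 12.17 on GT/M2TAD, 11.80 on siCtrl and 12.20 on siEp300. With native Mef2c its signal was 6.79 for GT/M1, 6.98 for GT/M2 and 6.36 for GT/M6, and it was lowest on MEF at 5.52. The lowest of the first 3 signals was thus 4.82 above the highest of the other 4. Nr4a1, known as Nur77, had 9.90, 10.30 and 10.88 on GT/M2TAD, siCtrl and siEp300, and 7.60 on MEF, with 7.19, 7.21 and 6.81 for isoforms 1, 2 and 6. These sets of arrays did not overlap and were 2.30 apart. Nr4a2, known as Nurr1 and needed for dopamine neurons, had 9.96, 10.14 and 10.40 on the first 3 arrays, and 8.30 on MEF and 6.25, 7.68 and 7.12 for isoforms 1, 2 and 6, with a gap of 1.66. All 3 receptors lay above the background line on GT/M2TAD and the siRNA arrays and under it on the other 4. Their size of difference therefore rests in part on background.

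**Figure D2:**
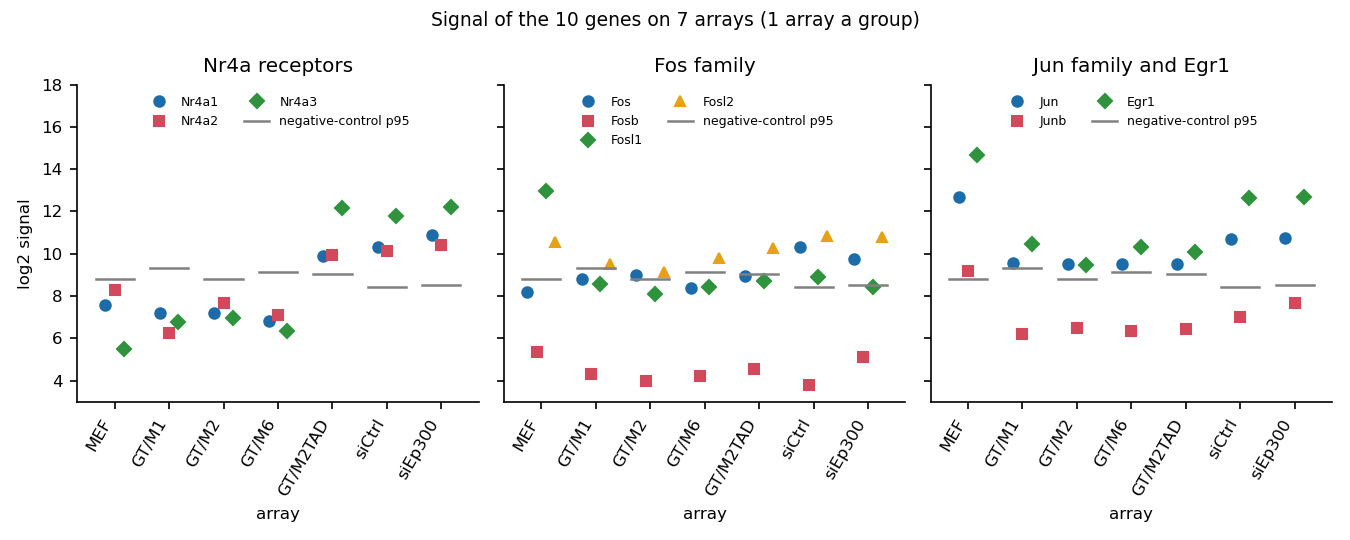
Log2 signal (y axis) of the 10 genes on each array (x axis, 1 array a group), in 3 panels by family, with a grey bar at each array's 95th percentile of negative-control probes. The 3 Nr4a genes lie above the bar on GT/M2TAD, siCtrl and siEp300 only, Fosl1 and Junb stand out on MEF, and Egr1 is highest on MEF and next highest on the siRNA arrays.

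GT/M2TAD, siCtrl and siEp300 are the 3 arrays whose source names carry GT/M2TAD. Of all named genes, 77 were higher on each of them than on each of the other 4 arrays by at least 1, with all 3 signals at or above their array's median. That is 0.395% of the genes, and 3 of the 10 members were among them. By the size of this gap Nr4a3 ranked 1, Nr4a1 ranked 9 and Nr4a2 ranked 15. Ccl17, at a gap of 4.77, and Xirp2, at 3.66, came next after Nr4a3. The gap was chosen as a measure after the values were seen, and the siRNA titles give another Mef2c form. The gaps of Nr4a1, Nr4a2 and Nr4a3 were 2.04, 1.40 and 5.07 after centring each array on its median and 1.98, 1.38 and 5.08 after quantile normalization.

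**Figure D3:**
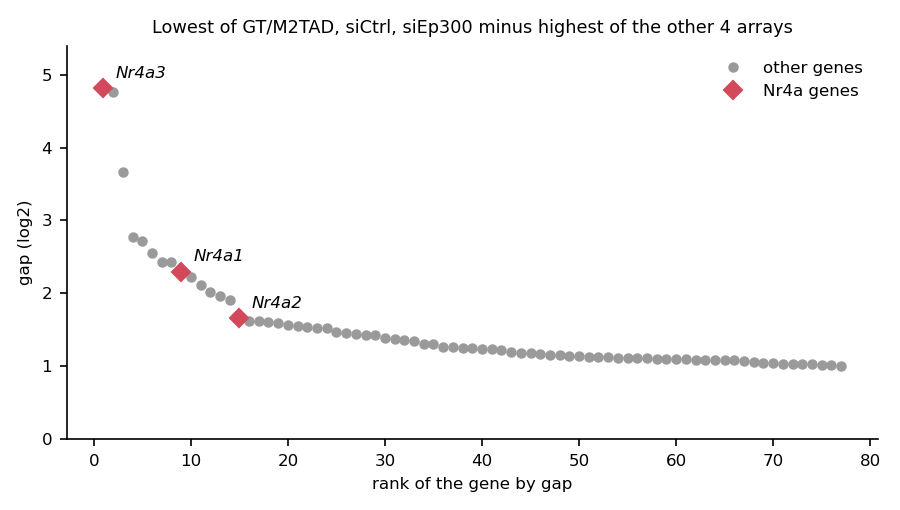
Gap in log2 signal (y axis) between the lowest of GT/M2TAD, siCtrl and siEp300 and the highest of the other 4 arrays, for the 77 genes with a gap of at least 1, in order of rank (x axis). Nr4a3 has the largest gap at 4.82, with Nr4a1 at 2.30 and Nr4a2 at 1.66 marked among the other genes.

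Set against plain isoform 2, the MyoD domain fusion had higher signals for 4 of 10 members by the 2-fold rule and lower ones for 0. Of all named genes 2.96% were higher and 3.33% lower. Nr4a3 was 5.19 higher on GT/M2TAD than on GT/M2, or 36.5-fold, and ranked 2 of 10083 genes at the floor. Nr4a1 was 2.69 higher and Nr4a2 2.28 higher, at ranks 28 and 59. The 4th was Fosl2, which encodes the AP-1 subunit Fra-2, 1.14 higher. With the mean of GT/M1, GT/M2 and GT/M6 as comparator Fosl2 was 0.78 higher and no longer 2-fold apart. Jun at 0.0011, Fos at -0.012 and Junb at -0.052 had nearly equal signals on GT/M2TAD and GT/M2. Fosl1 at 0.63, Egr1 at 0.63 and Fosb at 0.55 were not 2-fold apart. Fibroblast markers had a median difference of 0.30 between the same arrays, with 2 of 9 higher and 1 lower, and cardiac markers one of 0.0059, with 3 of 10 in each direction. Their part in the receptor differences was not tested.

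On the native isoform arrays all receptor signals lay under the background line, so their differences there carry little weight. Nr4a2 was 1.43 higher on GT/M2 than on GT/M1, the only receptor 2-fold apart among the 3 isoform comparisons, with both signals under the line. In that comparison Egr1 was lower on GT/M2 at -1.03, just past the threshold, and the other 8 members were not 2-fold apart. All named genes were higher in 1.9% and lower in 1.39% of cases there. Between GT/M6 and GT/M1, 0 of 10 members were 2-fold apart, where 0.646% of genes were higher and 0.292% lower. Between GT/M6 and GT/M2, 0 of 10 were again 2-fold apart, where 1.85% of genes were higher and 1.71% lower. Counts of 0 among 10 genes are near these general shares. The nearest to the threshold in that last comparison was Egr1, 0.87 higher on GT/M6.

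Fosl1, Jun, Junb and Egr1 had another pattern, with their highest signals on untreated MEFs. Fosl1, which encodes the AP-1 subunit Fra-1, stood at 12.95 on MEF. It was 8.55, 8.08 and 8.42 for isoforms 1, 2 and 6, 8.71 on GT/M2TAD, 8.89 on siCtrl and 8.42 on siEp300. The gap between MEF and the next array was 4.06, and Fosl1 passed the background line on MEF and siCtrl only. Jun, the partner common to most AP-1 dimers, had 12.66 on MEF, then 9.57, 9.51 and 9.53 for isoforms 1, 2 and 6 and 9.51 on GT/M2TAD. On siCtrl and siEp300 Jun stood between these, at 10.69 and 10.76. Junb, a second Jun protein, had 9.19 on MEF, 6.19, 6.50 and 6.34 for isoforms 1, 2 and 6, 6.44 on GT/M2TAD, and 7.01 and 7.68 with control and Ep300 siRNA. It passed the background line on MEF alone. Egr1 had 14.69 on MEF, 10.48, 9.45 and 10.32 for isoforms 1, 2 and 6, 10.08 on GT/M2TAD, and 12.61 and 12.70 on siCtrl and siEp300. MEF was higher than each other array by at least 1 for these 4 members, and for 4.74% of all named genes.

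Fos, Fosb and Fosl2 kept to neither pattern. Fos had its lowest signal on MEF, 8.19, with 8.79, 8.98 and 8.39 for isoforms 1, 2 and 6 and 8.97 on GT/M2TAD, and its highest on siCtrl and siEp300, 10.33 and 9.77. It passed the background line on GT/M2, siCtrl and siEp300. Fosl2 lay above the background line on all 7 arrays, with 10.56 on MEF, 9.54, 9.14 and 9.82 for isoforms 1, 2 and 6, 10.28 on GT/M2TAD, and 10.86 and 10.77 on siCtrl and siEp300. Fosb was under the median of named genes on all 7 arrays, between 3.80 and 5.37, and no level of it can be told from background here.

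Counts against the MEF array show both patterns together. On GT/M1, 1 of 10 members was at least 2-fold higher (Nr4a3) and 6 lower, against 12.5% and 9.52% of all named genes. On GT/M2, 1 was higher (Nr4a3) and 5 lower, against 13.6% and 8.34%. In each of these comparisons Nr4a3 was under the background line on both arrays, and 1 higher member of 10 is near the general share. On GT/M6, 0 were higher and 5 lower, against 13% and 8.79%. On GT/M2TAD, 3 were higher, the receptors, and 4 lower, against 14% and 9.5%. On siCtrl, 4 were higher and 4 lower, against 10.9% in each direction. On siEp300, 4 were higher and 4 lower, against 13.4% and 9.29%. Fosl1, Jun, Junb and Egr1 were lower in all 6 comparisons, which share the MEF array and so are not independent.

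**Figure D4:**
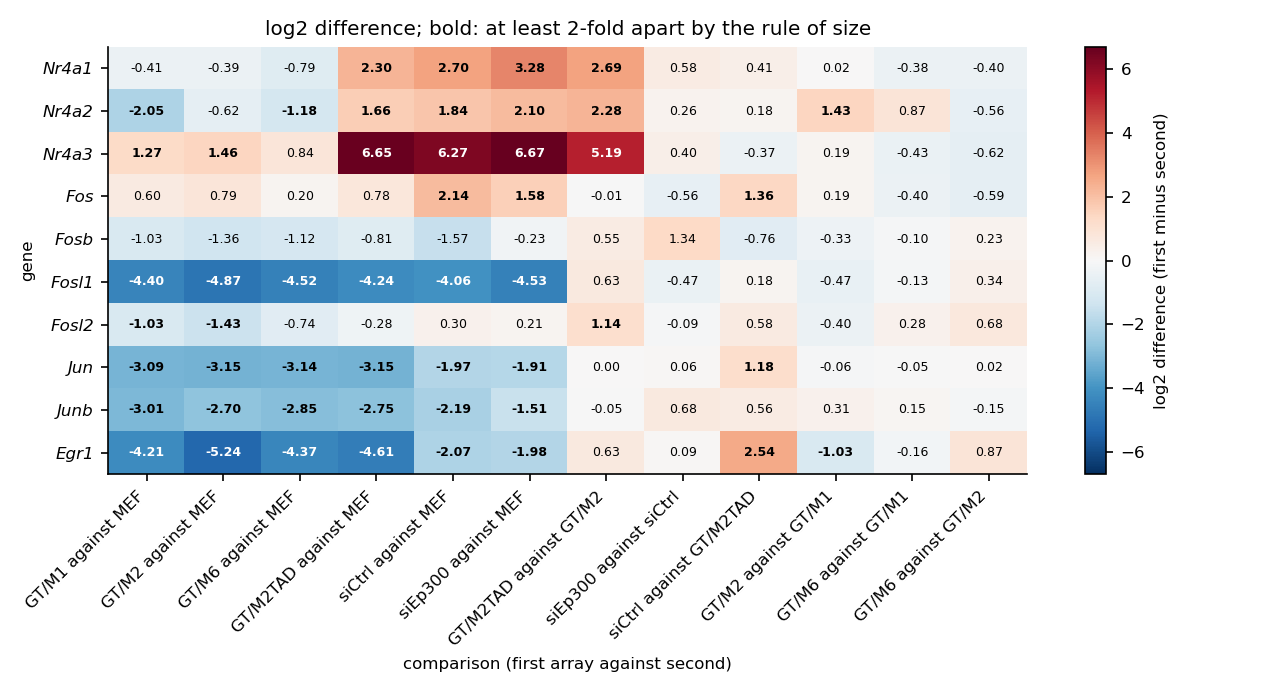
Log2 difference of each gene (rows) in the 12 comparisons (columns), first array minus second, with red for higher and blue for lower and the value in each cell. Bold values are at least 2-fold apart by the rule of size: the Nr4a rows are red for GT/M2TAD and the siRNA arrays against MEF, and the Fosl1, Jun, Junb and Egr1 rows are blue in the 6 comparisons with MEF.

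The differences from MEF were large for the AP-1 genes and Egr1. Fosl1 was lower by the widest margin among the AP-1 subunits, from -4.06 on siCtrl to -4.87 on GT/M2. Egr1 was at -4.21, -5.24 and -4.37 for isoforms 1, 2 and 6, a 37.7-fold difference for isoform 2, at -4.61 on GT/M2TAD and at -2.07 and -1.98 on siCtrl and siEp300. Jun lay between -3.09 and -3.15 in transduced cells that had no siRNA, and stood at -1.97 on siCtrl and -1.91 on siEp300. Nr4a3 was 6.65, 6.27 and 6.67 higher than on MEF on GT/M2TAD, siCtrl and siEp300, and ranked 49, 43 and 37 among genes at the floor. Nr4a3 on GT/M1, at 1.27, fell short of 2-fold after median centring (0.96) and quantile normalization (0.97). Nr4a2 was lower than on MEF on GT/M1 at -2.05 and on GT/M6 at -1.18, with each of these signals under the background line. The fibroblast markers moved in the same direction as the AP-1 genes: their median log2 difference from MEF was -2.02, -1.74 and -1.57 for isoforms 1, 2 and 6 and -1.90 on GT/M2TAD, with 5, 6, 5 and 5 of 9 at least 2-fold lower. On siCtrl that median was -0.093. In bulk RNA, fewer fibroblasts and less RNA per fibroblast cannot be told apart, and the part of either in these differences was not tested. Infection, time in culture and medium cannot be told apart from the factors in any comparison with MEF.

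The siRNA arrays had higher Egr1, Jun and Fos than GT/M2TAD without siRNA. Egr1 was 2.54 higher on siCtrl than on GT/M2TAD, Fos 1.36 higher and Jun 1.18 higher, so that the 2-fold rule was met upwards by 3 of 10 members and downwards by 0, against 3.04% and 6.38% of all named genes. The receptors were not 2-fold apart, with Nr4a1 0.41 higher, Nr4a2 0.18 higher and Nr4a3 at -0.37. Between siCtrl and GT/M2TAD, 56.4% of negative-control probes above the background line were 2-fold apart, so the Fos and Jun differences are not secure. Set against all 4 transduced arrays without siRNA, both siRNA arrays were higher by at least 1 for Egr1, with a gap of 2.14, and for Jun, with a gap of 1.12, a rule met by 1.34% of named genes. Fos, with a gap of 0.79, did not meet it, and its signal on GT/M2TAD was under the background line. Fibroblast markers were higher on siCtrl as well, with a median of 2.09 over GT/M2TAD and 5 of 9 at least 2-fold higher, and cardiac markers lower, with a median of -1.29 and 6 of 10 lower. Tbx5 was 14.83 on siCtrl and 16.14 on GT/M2TAD. The part of these shifts in the Egr1, Jun and Fos differences was not tested. Of the 16 heat shock and stress genes measured, 0 were 2-fold apart between siCtrl and GT/M2TAD, a count near the general share. The siRNA transfection, the Mef2c form and the handling of these cells cannot be told apart.

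With Ep300 siRNA, 0 of 10 members were called 2-fold apart from control siRNA, where 1.93% of named genes were higher and 0.39% lower. Ep300 itself, at 9.47 on siEp300 and 9.90 on siCtrl, was not 2-fold apart either. Nr4a1 was 0.58 higher on siEp300, Nr4a3 0.40 higher and Nr4a2 0.26 higher, beside a median of 0.14 over all named genes. Junb was 0.68 higher, Jun 0.062 and Egr1 0.087 higher, and Fosl2 stood at -0.089, Fosl1 at -0.47 and Fos at -0.56. After median centring Jun was at -0.10 and Egr1 at -0.078, so neither has a settled direction. Fosb differed by 1.34, but both of its signals lay under the floor. With 1 array on each side, no interval can be put on these differences, and they do not show that Ep300 siRNA left the genes alike.

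Genes whose signals over the 7 arrays followed a member most closely were sought among 2187 genes with a range of at least 2 and a highest signal above the background line. The correlations are descriptions over 7 arrays, in which a split of 3 high and 4 low arrays, or 1 high array, sets most of the value. Nr4a3 was followed by Hdac9, a class IIa histone deacetylase (Pearson r = 0.991), Wwp1 (0.990), Dnaja4 (0.987), Dusp27 (0.987) and Mxra7 (0.985). Hdac9 had 9.84, 10.08 and 9.85 on GT/M2TAD, siCtrl and siEp300, and between 7.79 and 8.28 on the other arrays. Nr4a1 was followed by Ccl17, a chemokine (0.977), Lrrc27 (0.975), the muscle gene Xirp2 (0.974), Dusp27 (0.969) and Nabp1 (0.969). Nr4a2 was followed by Mrtfa, a coactivator of the serum response factor (0.976), Il13ra1 (0.971), Cyb5r1 (0.969), Apbb2 (0.967) and Tcim (0.963). Between the receptors, r was 0.944 for Nr4a1 and Nr4a2, 0.956 for Nr4a1 and Nr4a3 and 0.877 for Nr4a2 and Nr4a3. Fos, which was also high on the siRNA arrays, had r of 0.797 with Nr4a1, 0.685 with Nr4a2 and 0.803 with Nr4a3, while Jun had 0.151, 0.280 and -0.134.

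Fosl1, Jun, Egr1, Junb and Fos had other companions. Fosl1 was followed by Hmga2, a chromatin protein of embryonic cells (0.997), Chst2 (0.995), Foxs1 (0.991), the urokinase receptor Plaur (0.988) and Phlda1 (0.987). These values rested on MEF: without that array r fell to 0.872 for Hmga2 and 0.147 for Phlda1. Jun was followed by the glucose transporter Slc2a1 (0.994), the urokinase Plau (0.994), Tll1 (0.992), Crispld2 (0.990) and Kcnab1 (0.989). Egr1 was followed by Mex3b (0.995), Rai14 (0.992), Lrrc17 (0.991), Bcat1 (0.990) and Rgs4 (0.990). For Junb the genes were Brinp1 (0.987), Tnfaip3 (0.985), the immediate early gene Ier2 (0.984), Tll1 (0.984) and Slc2a1 (0.982), and for Fos Tanc2 (0.971), Adgrg6 (0.961), Pigs (0.957), Kif3a (0.957) and Mylk (0.944). Jun, Junb and Egr1 followed each other, with r of 0.979 for Jun and Junb and 0.966 for Jun and Egr1. Which 5 genes led was unstable: by rank correlation 0 or 1 of the 5 recurred for each member, and without MEF between 0 and 2.

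Other genes of the same pathways were read from lists of 30 further immediate early genes, 13 AP-1 dimer partners, 18 serum response and MAP kinase regulators, 15 MAP kinase feedback inhibitors, 29 cyclic AMP, CREB and calcineurin regulators, 17 reported AP-1 targets and 23 reported Nr4a targets and partners. On GT/M2TAD against MEF, 14% of all named genes were at least 2-fold higher and 9.5% lower. Of the 30 immediate early genes, 4 were higher and 12 lower, with a list median of -0.75 beside 0.091 over all named genes. Lowest were the cyclooxygenase gene Ptgs2 at -5.39, Egr2 at -5.30, the kinase Plk2 at -3.28 and Ier2 at -3.21. Higher were the antiproliferative gene Btg2 by 3.15, the kinase Sik1 by 2.17, Atf3 by 1.76 and Ier3 by 1.14. Genes of this list thus lay on both sides of MEF, as the members did. For isoforms 1, 2 and 6, 17, 14 and 15 of the 30 were lower and 4, 4 and 3 higher. The shares of all named genes were 9.52%, 8.34% and 8.79% lower and 12.5%, 13.6% and 13% higher. Of the cyclic AMP, CREB and calcineurin regulators, 12 of 29 were higher on GT/M2TAD than on MEF and 4 lower, with Rcan2, a calcineurin inhibitor, at 6.98, the phosphodiesterase Pde7b at 6.75 and Prkar2b, a regulatory subunit of protein kinase A, at -5.50. The serum response and MAP kinase regulators had 1 of 18 higher and 5 lower, among them the platelet-derived growth factor receptor Pdgfrb at -3.44 and the serum response factor Srf at -1.77. Feedback inhibitors were split, with 3 of 15 higher and 4 lower, from Spred1 at 1.99 to Spry1 at -3.93. Counts of higher genes in the immediate early, serum response and feedback lists are near the general share.

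On GT/M2TAD against GT/M2, 2.96% of all named genes were higher and 3.33% lower. The list of 30 immediate early genes had 8 higher and 1 lower, with a median of 0.43 beside 0.0020 over all named genes. Ptgs2 was 3.98 higher, Ccn2, a matricellular protein gene, 1.93, the phosphatase Dusp1 1.79 and Nfil3, under the background line on both arrays, 1.56 higher, and Myc was lower at -2.88. With the floor at the background line the 8 became 4. Of the cyclic AMP, CREB and calcineurin regulators, 6 of 29 were higher and 0 lower, at a median of 0.52. They were led by the receptor component Ramp1 at 4.79, Rcan2 at 1.96, the anchoring protein Akap12 at 1.35 and Prkacb, a catalytic subunit of protein kinase A, at 1.21. Of the serum response and MAP kinase regulators, 4 of 18 were higher and 0 lower, namely Pdgfrb at 2.17, Mrtfa at 1.53, Elk3 at 1.35 and, with both signals under the background line, Fgfr1 at 1.05. Of the feedback inhibitors 2 of 15 were higher, Spry4 at 1.44 and Dusp4 at 1.31, with both signals of each under the background line. Of the 13 AP-1 dimer partners, Creb5 alone was 2-fold apart, 1.24 higher with both signals under the line. On siCtrl against GT/M2TAD, where Egr1, Jun and Fos were higher, 5 of the 30 other immediate early genes were higher and 2 lower, with Plk2 at 2.70, Csrnp1 at 2.11, Ptgs2 at 2.02 and Dusp1 at 1.65, and Egr3 at -1.54 and Zfp36 at -1.34. Csrnp1 and Egr3 were under the line on both arrays. In that comparison 3.04% of all named genes were higher and 6.38% lower.

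Of 17 AP-1 targets, 8 were at least 2-fold lower on GT/M2TAD than on MEF and 0 higher. Among the 8 were Plaur at -6.80, Ccl2 at -6.53, Plau at -5.76 and Mmp9 at -4.06. Fosl1, Jun and Junb were lower there too. So were fibroblast markers, at a median of -1.90, with 5 of 9 lower and 1 higher. The part of either in the target count was not tested. Mmp9 was under the line on both arrays. Of all named genes 14% were higher and 9.5% lower on GT/M2TAD than on MEF. On siCtrl against GT/M2TAD 6 of 17 were higher and 0 lower, where 3.04% of all named genes were higher and 6.38% lower. The collagenase Mmp13 led at 4.69, but its siCtrl signal of 8.48 was just above that array's background line of 8.43. Plau followed at 2.39 with both signals under the line, then the growth factor Ereg at 1.69 and Lif at 1.40. On GT/M2TAD against GT/M2 4 were higher, Ereg at 3.47, Timp1 at 2.79, Hbegf at 2.27 and, under the line on both arrays, Plaur at 1.19, and Hmox1 was lower at -1.02. Of 23 reported Nr4a targets and partners, 0 were higher and 2 lower on GT/M2TAD against GT/M2, Pygm at -1.51 and Aldh1a1 at -1.18, the latter with both signals under the background line, and the list median was 0.020. Of all named genes 2.96% were higher and 3.33% lower in that comparison, so a count this small is near the general share. Against MEF, 9 of the 23 were higher on GT/M2TAD, beside 14% of all named genes. Among them were the muscle enolase Eno3 at 7.06, Pgam2 at 4.01, Lpin1 at 3.63 and Pfkm at 3.29. Cardiac muscle markers were higher there too, at a median of 5.86, and their part in this count was not tested. For each native isoform 8 of the 23 were higher than on MEF. Nr4a3 alone of the receptors was above its MEF signal there, with both signals under the background line. Of all named genes 12.5%, 13.6% and 13% were higher for isoforms 1, 2 and 6. The retinoid receptor partners of the Nr4a proteins, Rxra, Rxrb and Rxrg, lay under the background line on all 7 arrays.

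**Figure D5:**
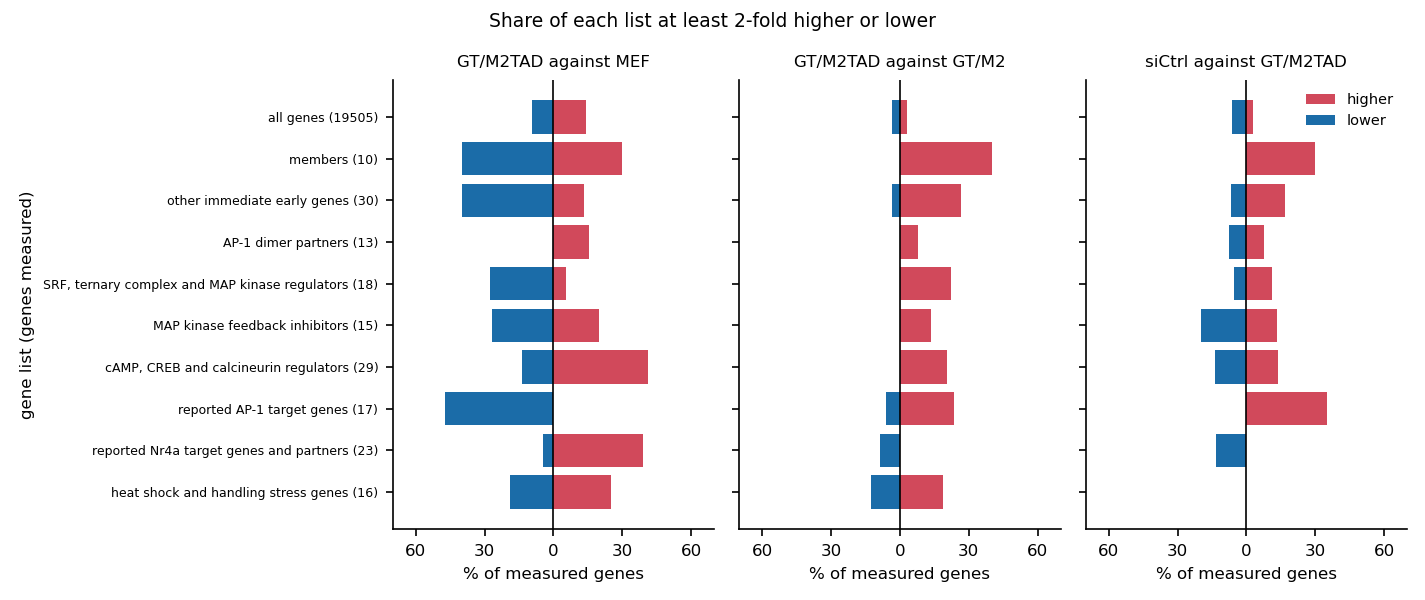
Share of the measured genes of each list (y axis, number of genes in brackets) at least 2-fold higher (red, to the right) or lower (blue, to the left), as a percentage (x axis), in 3 comparisons. On GT/M2TAD against GT/M2, 4 of 10 members and 8 of 30 other immediate early genes are higher and the rest of both lists, but for 1 lower gene, are not 2-fold apart. The top bar holds all genes, and the members were chosen on these signals.

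On siEp300 against siCtrl 0 genes of the immediate early, AP-1 partner, serum response and reported Nr4a target lists were 2-fold apart. Of all named genes 1.93% were higher and 0.39% lower there, so counts of 0 in lists of this size are near the general share. In the other lists the genes called were Dusp14 at 1.02 and Dusp7 at 1.22 among the feedback inhibitors, Mmp10 at 1.48 and Ccl2 at 1.01 among AP-1 targets, and Adcy7 at -1.28 among cyclic AMP genes. Both signals of Dusp7, Mmp10, Ccl2 and Adcy7 lay under the background line.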

How the data were processed

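RNA of 7 samples was measured on 1 Affymetrix Clariom S mouse array each. The deposited values are log2 signals per probe set. Per the series text the authors normalized them with SST-RMA, and per the submitters' processing notes they used Affymetrix Expression Console 1.4. Its settings and the genome build are not given in the sources used here. Normalization of this kind can remove a change common to most genes, and signals near background understate differences. Of 28846 probe sets, 19572 had 1 gene symbol and 0 several, and 9274 had none. All 19572 matched RefSeq (GRCm38.p6) by Entrez identifier. Where a gene had more than 1 probe set (55 genes), that with the highest mean was used.

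Differences are first array minus second, with no test and no p-value, since each group is 1 array. Precision is limited by the number of arrays. The members and lists were chosen with earlier results of these data known. Named genes are the members, the 5 genes most correlated with each member whose range was at least 2, without predicted genes, and up to 4 genes a list in each direction among those 2-fold apart. Of the listed genes, 4 were matched through older symbols. Promoters for 8 of 10 members came from RefSeq, and the chromosome of Egr1 was left out of the search. Code was tested on simulated data. Alternatives were median centring, quantile normalization, loess centring (span 0.3), other floors, the mean of probe sets, other comparators and rank correlation. Python 3.11.15, pandas 2.3.3 and statsmodels 0.14.6 were used.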

Additional observations from a re-analysis of the deposited data

How the results depend on the processing

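Each of the 24 counts of members 2-fold higher or lower was recomputed under 6 alternatives. With level-dependent centring and with the mean of probe sets, all 24 stayed within 1.5 times. Members higher on GT/M1 than on MEF went from 1 to 0 after median centring, after quantile normalization and with the floor at the negative-control percentile. With that floor, members higher on GT/M2 than on MEF and on GT/M2 than on GT/M1 also went from 1 to 0, because the floor counts no gene under the line. With no floor, Fosb made 1 member higher on siEp300 than on siCtrl, in place of 0. No member that was 2-fold apart changed sign under any of these alternatives, nor with the other comparators for GT/M2TAD and GT/M2. Nr4a1 on GT/M6 against MEF became 2-fold lower, at -1.12, -1.11 and -1.05 after median centring, quantile normalization and level-dependent centring, and Fosl2 there at -1.07 after median centring. With siCtrl in place of GT/M2TAD, Fos, Jun and Egr1 were 1.35, 1.19 and 3.17 above GT/M2. The gap counts of 3, 2 and 4 members were the same after median centring, quantile normalization and with no floor, alternatives chosen after seeing the data. Of 192 counts over the pathway lists, 147 stayed within 1.5 times with the floor at the negative-control percentile and at least 170 under each other alternative. No paired analysis was possible because each group is 1 array. Leaving out a replicate was not possible for the same reason.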
